A study of Homo sapiens with 6 samples.

Results

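Imprinted genes were followed in breast cell lines treated with decitabine. The 38 genes were taken by symbol from a list of well-known imprinted loci, chosen with earlier results of these data known. All 38 were found among the 23617 symbols measured in MDA-MB-231, where they have 108 transcripts. RNA was sequenced in 6 libraries: 1 untreated and 1 treated of MDA-MB-231, a line from a human breast cancer, and 2 untreated and 2 treated of HMLER, human mammary cells transformed in vitro. Treated cells received 10 µM of 5-aza-2'-deoxycytidine (decitabine, DAC) each day and were collected at 72 h, and the others received no drug. A label gives another line number for the untreated MDA-MB-231 library, and its title was used. Each RNA sent for sequencing was a pool of several extractions, and each group is a single cell line.

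An imprinted gene is transcribed mainly from the copy inherited from 1 parent. The choice is set by DNA methylation that is laid down in the egg or the sperm at a differentially methylated region and that the maintenance methyltransferase DNMT1 copies at each cell division. The methylated copy of that region can silence a gene directly, or act through an insulator or a noncoding RNA on genes nearby, so that the silent copy of a gene is not always the methylated one. Most such genes lie in clusters under a shared control region, and many act on fetal and placental growth: IGF2, for example, promotes growth and CDKN1C restrains it. DAC is built into DNA and traps DNA methyltransferases. RNA from bulk cells does not tell the parental copies apart, nor more cells expressing a gene from more RNA per cell.

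Levels are in FPKM, fragments scaled to the length of the transcript and to the size of the library, and they were summed over the transcripts of a symbol. A gene was called higher or lower when its value after DAC was more than 2-fold above or below its untreated value and reached 1 FPKM in at least 1 library. There was 1 library per condition in MDA-MB-231, so these calls have no replicate check and no test was run. The range that Cuffdiff puts around a transcript's value is given as its bounds. The HMLER table merges both libraries of a condition into 1 value and holds only transcripts that rose: the lowest DAC/untreated ratio in it was 2.0 and the lowest DAC value 1.0 FPKM. Falls and unchanged levels in HMLER were therefore not analysed here, and the depth behind its values is unknown. In MDA-MB-231, the lowest FPKM values were multiples of a fixed step that corresponds to a single read. All of the 818 untreated and 883 DAC values tried lay within 0.1 of a whole read, and reads are given on this scale. The step was 1.01 times larger in the DAC library than in the untreated one. Counting intervals below are exact 95% binomial (Clopper-Pearson) intervals of the DAC/untreated ratio of reads. They cover counting error only, and reads may include copies made by PCR. For the 11292 symbols that reached 1 FPKM with and without DAC, levels after DAC were a median of 0.912 times the untreated ones (log2 -0.13). MDA-MB-231 cells were high in KRT8 and KRT18, keratins of luminal epithelium, and in VIM (vimentin), a mesenchymal filament. KRT8 was at 154.4 and 141.0 FPKM without and with DAC, and VIM at 3066 and 1134 FPKM, and whether the fall of VIM bears on the imprinted genes was not tested. The basal keratins KRT5 and KRT14 were under 0.05 FPKM. In HMLER, KRT5 (9.85 and 37.1 FPKM), KRT14 (11.6 and 52.2 FPKM) and the epithelial adhesion gene EPCAM (0.450 and 2.17 FPKM) were listed as higher after DAC, while KRT8, KRT18, CDH1 and VIM were not listed. These markers were higher in the same treated cells as the 10 imprinted genes listed there, and their part in those results was not tested. The E-cadherin gene CDH1 was listed at 0 untreated and was 0.179 FPKM after DAC.

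In MDA-MB-231, 6 of the 38 genes were higher after DAC (H19, SLC22A18, TFPI2, NNAT, MEST and PLAGL1), or 15.8%, where 5.72% of all symbols were called higher. GRB10 was the 1 gene called lower, 2.63% of the list beside 2.56% of all symbols. The list was chosen with earlier results of these data known, which limits what its shares can show. Of 71 further genes reported as imprinted, 2.82% were called higher, 5.63% were called lower and 9.86% were listed in HMLER. Only 19 of the 38 reached 1 FPKM in a library. Of these, 4 (H19, MEST, PLAGL1 and L3MBTL1) reached it only after DAC, so that a call among them could only be a rise. Another 9 had reads but stayed under 1 FPKM, and 10 were listed at 0 in both libraries. In HMLER, 10 of the 38 genes were listed as higher (H19, IGF2, KCNQ1OT1, MEG3, USP29, TFPI2, NNAT, DIRAS3, INPP5F and FAM50B), or 26.3%, where 7.85% of the MDA-MB-231 symbols were listed. As only rises are listed for HMLER, all 10 could enter only as a rise. Of these 10, IGF2, KCNQ1OT1, USP29, NNAT and INPP5F reached 1 FPKM only after DAC. The other 5, 13.2% of the 38 genes, had a transcript that was listed as higher and was at 1 FPKM or more in both conditions. This held for 4.07% of all symbols. H19, TFPI2 and NNAT were higher in both lines, 3 of 38 genes where the share over all symbols was 1.94%. The measures differ: MDA-MB-231 calls use the sum over transcripts, while any listed transcript counts in HMLER, where falling transcripts are not seen. In 3 of the 38 genes (TFPI2, PLAGL1 and INPP5F), a transcript had a lower DAC bound above its upper untreated bound, and this held for 0.775% of all symbols.

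**Figure D1:**
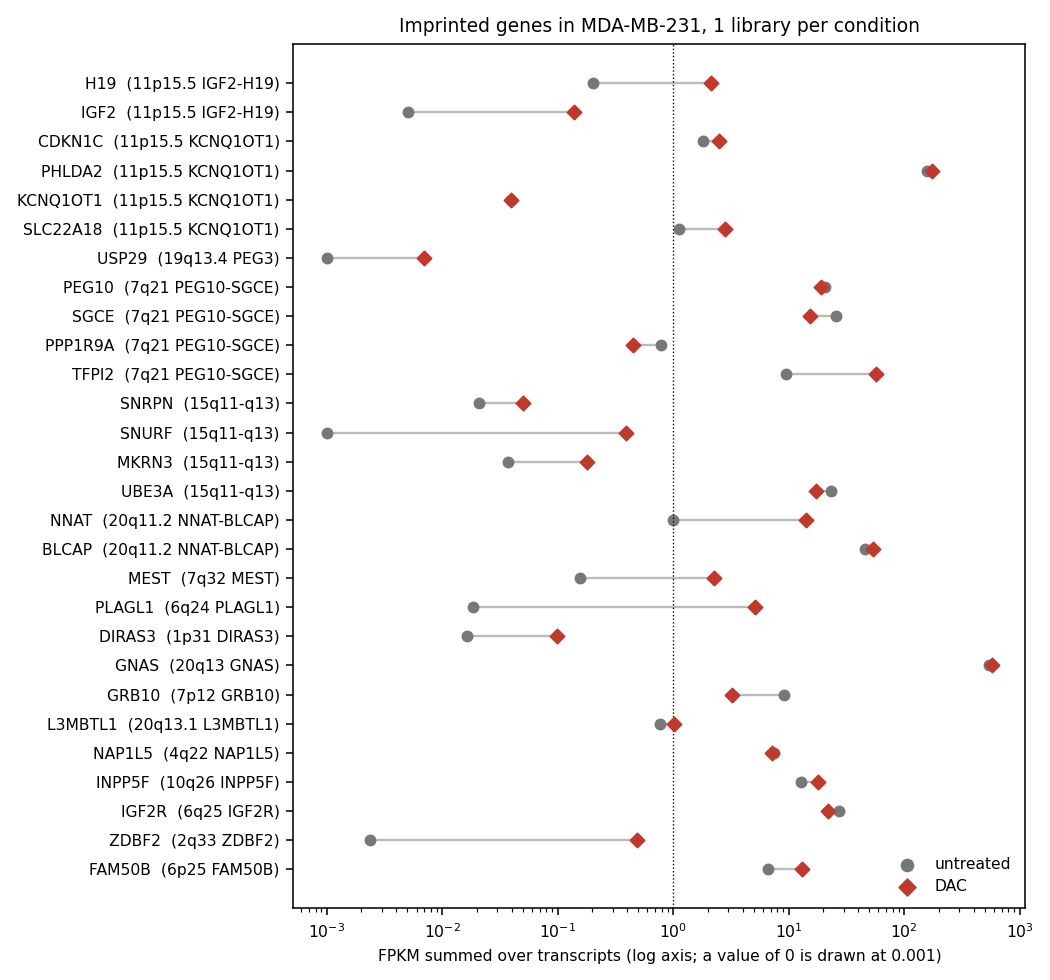
FPKM summed over transcripts (horizontal log axis) of the 28 imprinted genes with a value above 0 in MDA-MB-231, grouped by cluster, in the untreated library (grey circles) and the DAC library (red diamonds). The dotted line marks 1 FPKM, and PLAGL1, MEST and H19 cross it from below while PHLDA2, PEG10, BLCAP and GNAS hardly move.

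The list divides by the parental copy that is expressed. Of 23 genes known to be expressed from the paternal copy, 3 were called higher in MDA-MB-231, and the HMLER table listed 7. Of 12 genes known to be expressed from the maternal copy in at least some tissues, 3 were called higher and 3 were listed. The remaining 3, GNAS, GRB10 and BLCAP, were classed as isoform dependent, and none of them was called higher or listed in HMLER. Classes were set per gene, and whether the transcripts that rose are imprinted ones was not determined here. INPP5F, of which 1 isoform is imprinted, is counted as paternal. Over all symbols, 5.72% were called higher and 7.85% were listed. Both parental classes held genes that rose, and the classes were not compared by a test with each other or with these shares.

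Sequences are printed for the 300 bases around the annotated start (250 before and 50 after it) of 4 genes. These are 4 of the genes whose value was higher after DAC in a line and whose annotated start lies within the GENCODE gene. The starts of ZDBF2 and FAM50B are just upstream of the locus in the deposited table. They are given because the enzymes that DAC traps methylate cytosine in CpG, and capitals mark each CpG. The sequences are those of RefSeq on GRCh38.p14, and the positions come from an exact match to GRCh37, the assembly of hg19. TFPI2 is on the minus strand at chr7:93520016-93520315, DIRAS3 on the minus strand at chr1:68516261-68516560, ZDBF2 on the plus strand at chr2:207139137-207139436 and FAM50B on the plus strand at chr6:3849357-3849656.
TFPI2: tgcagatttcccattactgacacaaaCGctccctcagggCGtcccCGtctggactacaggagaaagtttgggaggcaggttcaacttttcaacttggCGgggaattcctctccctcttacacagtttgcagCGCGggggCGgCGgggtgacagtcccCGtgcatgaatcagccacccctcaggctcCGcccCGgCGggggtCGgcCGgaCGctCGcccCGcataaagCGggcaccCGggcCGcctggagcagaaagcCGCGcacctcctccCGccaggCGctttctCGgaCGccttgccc
DIRAS3: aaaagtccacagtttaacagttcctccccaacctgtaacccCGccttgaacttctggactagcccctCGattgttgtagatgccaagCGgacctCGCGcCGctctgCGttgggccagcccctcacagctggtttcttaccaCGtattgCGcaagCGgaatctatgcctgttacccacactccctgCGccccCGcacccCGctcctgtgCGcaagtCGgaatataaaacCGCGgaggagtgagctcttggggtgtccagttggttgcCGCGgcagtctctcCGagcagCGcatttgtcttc
ZDBF2: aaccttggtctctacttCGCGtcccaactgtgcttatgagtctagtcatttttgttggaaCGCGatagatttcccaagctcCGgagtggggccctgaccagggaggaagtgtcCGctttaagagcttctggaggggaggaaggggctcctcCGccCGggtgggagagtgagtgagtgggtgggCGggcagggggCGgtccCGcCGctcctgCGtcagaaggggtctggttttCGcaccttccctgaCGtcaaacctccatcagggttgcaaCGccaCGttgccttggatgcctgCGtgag
FAM50B: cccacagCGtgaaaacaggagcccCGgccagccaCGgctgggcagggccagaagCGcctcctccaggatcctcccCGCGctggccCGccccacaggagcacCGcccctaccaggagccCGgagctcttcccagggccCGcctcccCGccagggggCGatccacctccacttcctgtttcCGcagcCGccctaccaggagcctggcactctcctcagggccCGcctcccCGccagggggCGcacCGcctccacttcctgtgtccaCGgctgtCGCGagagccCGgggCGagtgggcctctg
These windows hold 26 CpG for TFPI2, 21 for DIRAS3, 18 for ZDBF2 and 23 for FAM50B. Other genes that rose and met the same rule are not printed. Among them, H19 had 6 CpG, MEST 13, MEG3 19, PLAGL1 31 and INPP5F 34. The H19 start is further upstream of its measured locus (-3431 bases) than those of ZDBF2 (-136) and FAM50B (-25). The H19 window is therefore not at the start of the measured H19 transcript. In INPP5F, NM_001243194 rose and NM_014937 did not, and which of them begins at the window was not determined here. A window was found for 25 of the 38 genes, with a median of 19 CpG and a range of 6 to 44, where the median over 35116 gene starts was 14. At least 20 CpG were counted in 12 of the 25 windows, 48%, and in 41.2% of all windows. The motif TGCCGC, which the imprint-protecting zinc-finger protein ZFP57 binds when its CpG is methylated, was searched on both strands. It occurred in 11 of the 25 windows, 44%, and in 16.7% of all windows. It was in the DIRAS3 window and not in those of TFPI2, ZDBF2 and FAM50B. As the motif holds a CpG and these windows are richer in CpG, the 2 shares are not matched for CpG content. The windows are gene starts and need not be control regions. ZFP57 itself was listed at 0 in both MDA-MB-231 libraries and was not listed in HMLER. The starts of NNAT and IGF2 had no entry.

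On chromosome 11p15.5, H19 and IGF2 lie side by side under a control region that the insulator protein CTCF binds. H19 (hg19, chromosome 11, 2016396 to 2025782, minus strand), a long noncoding RNA expressed from the maternal copy, was at 0.201 FPKM in the untreated MDA-MB-231 library, with bounds of 0 to 0.560. With DAC it was at 2.13 FPKM, with bounds of 0 to 4.55. These values are 18 and 190 reads, a ratio of 10.6 (counting interval 6.54 to 18.3), while the bounds overlapped. In HMLER, H19 started higher, at 3.79 FPKM, and rose to 7.73 FPKM, so that the line with the lower untreated level had the larger ratio. IGF2 (2150342 to 2179621, minus strand), the growth factor made from the paternal copy, had 1 read in MDA-MB-231 without DAC and 29 with it, or 0.00506 and 0.138 FPKM. The ratio of reads was 29.2, with a counting interval of 4.84 to 1192, and the level after DAC remained far under 1 FPKM. In HMLER, the IGF2 transcript NM_001127598 rose from 0.0361 to 6.40 FPKM, a ratio of 177. In MDA-MB-231 with DAC, IGF2 reads were assigned to the other IGF2 transcripts, NM_000612 (0.104 FPKM) and NM_001007139 (0.0343 FPKM), and to the overlapping read-through gene INS-IGF2, whose reads cannot be separated with certainty. H19 and IGF2, which are normally expressed from opposite parental copies, were thus both listed as higher in HMLER.

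The second domain of 11p15.5 is governed by KCNQ1OT1, an antisense RNA that starts inside KCNQ1 and is made from the paternal copy. KCNQ1OT1 (2618538 to 2721233, minus strand) had 154 reads in each MDA-MB-231 library, 0.0395 and 0.0397 FPKM, and a counting interval of 0.800 to 1.27 for the ratio. In HMLER it rose from 0.880 to 2.0 FPKM, a ratio of 2.27, just above the limit of that table. The transcript lies within introns of KCNQ1, a potassium channel gene read from the other strand, and reads of the 2 cannot be told apart without strand, which is not stated. KCNQ1 itself was listed at 0 in both MDA-MB-231 libraries. Of the protein-coding genes of the domain, SLC22A18, a membrane transporter (2920951 to 2946476, plus strand), was at 1.12 FPKM untreated and 2.79 FPKM after DAC, 64 and 158 reads. Its ratio of 2.48 had a counting interval of 1.85 to 3.38, and the bounds of its main transcript overlapped (0 to 3.31 and 0 to 6.01). CDKN1C, which encodes the cyclin-dependent kinase inhibitor p57, was at 1.81 and 2.48 FPKM, a ratio of 1.37. PHLDA2, which restrains growth of the placenta, was already at 157.7 FPKM (bounds 86.5 to 229.0) and was at 174.1 FPKM (bounds 95.4 to 252.7) after DAC, a ratio of 1.10. Levels in the domain therefore spanned from 0 to over 100 FPKM, and SLC22A18 was the 1 of these 5 genes past the threshold in MDA-MB-231.

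At 14q32, the noncoding RNAs MEG3 and MEG8 come from the maternal copy, and DLK1, a transmembrane protein with EGF-like repeats, and RTL1, derived from a retrotransposon, from the paternal copy. All 15 MEG3 transcripts, as well as MEG8, DLK1 and RTL1, were listed at 0 in both MDA-MB-231 libraries. MEG3 (chromosome 14, 101245747 to 101327368, plus strand) was expressed in untreated HMLER cells, and 3 of its transcripts rose. NR_003530 went from 3.90 to 9.79 FPKM, NR_003531 from 1.45 to 5.43 FPKM and NR_046464 from 1.28 to 2.87 FPKM. Summed over these 3, MEG3 was at 6.63 and 18.1 FPKM, a ratio of 2.73. DLK1, RTL1 and MEG8 were not listed in HMLER. The difference between the lines was not tested. Cuffdiff gave the status OK to all transcripts of these genes, but a listed 0 need not mean that no RNA was present. EHMT2, a histone methyltransferase gene active in most cells, was also listed at 0 in both MDA-MB-231 libraries.

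At 7q21, TFPI2 had the largest gain in FPKM of all 38 genes in MDA-MB-231. TFPI2 (chromosome 7, 93514708 to 93520065, minus strand) encodes a secreted Kunitz-type inhibitor of serine proteases that is imprinted in placenta. Its main transcript NM_006528 was at 9.22 FPKM (bounds 3.64 to 14.8) untreated and 56.0 FPKM (bounds 30.4 to 81.6) after DAC, and the bounds did not overlap. All transcripts together rose from 9.58 to 57.4 FPKM, 914 and 5440 reads, a ratio of 5.99. The same transcript rose from 3.34 to 35.4 FPKM in HMLER, a ratio of 10.6. None of SGCE, PEG10 and PPP1R9A, the other genes of the list in this cluster, was called higher. SGCE, epsilon-sarcoglycan, was at 25.6 FPKM untreated and 15.2 FPKM after DAC, a ratio of 0.592, and the bounds of its main transcript overlapped (12.4 to 38.5 and 6.34 to 24.02). PEG10, a gene derived from a retrotransposon that starts beside SGCE, was at 20.8 and 19 FPKM, a ratio of 0.912. Within PEG10, the transcript NM_001172437 went from 8.63 to 2.92 FPKM and NM_001184961 from 12.2 to 16.1 FPKM, with overlapping bounds in both. PPP1R9A, the actin-binding scaffold neurabin-1, was at 0.791 and 0.446 FPKM. TFPI2, at the edge of the cluster, therefore moved apart from its neighbours, and none of SGCE, PEG10 and PPP1R9A was listed in HMLER.

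**Figure D2:**
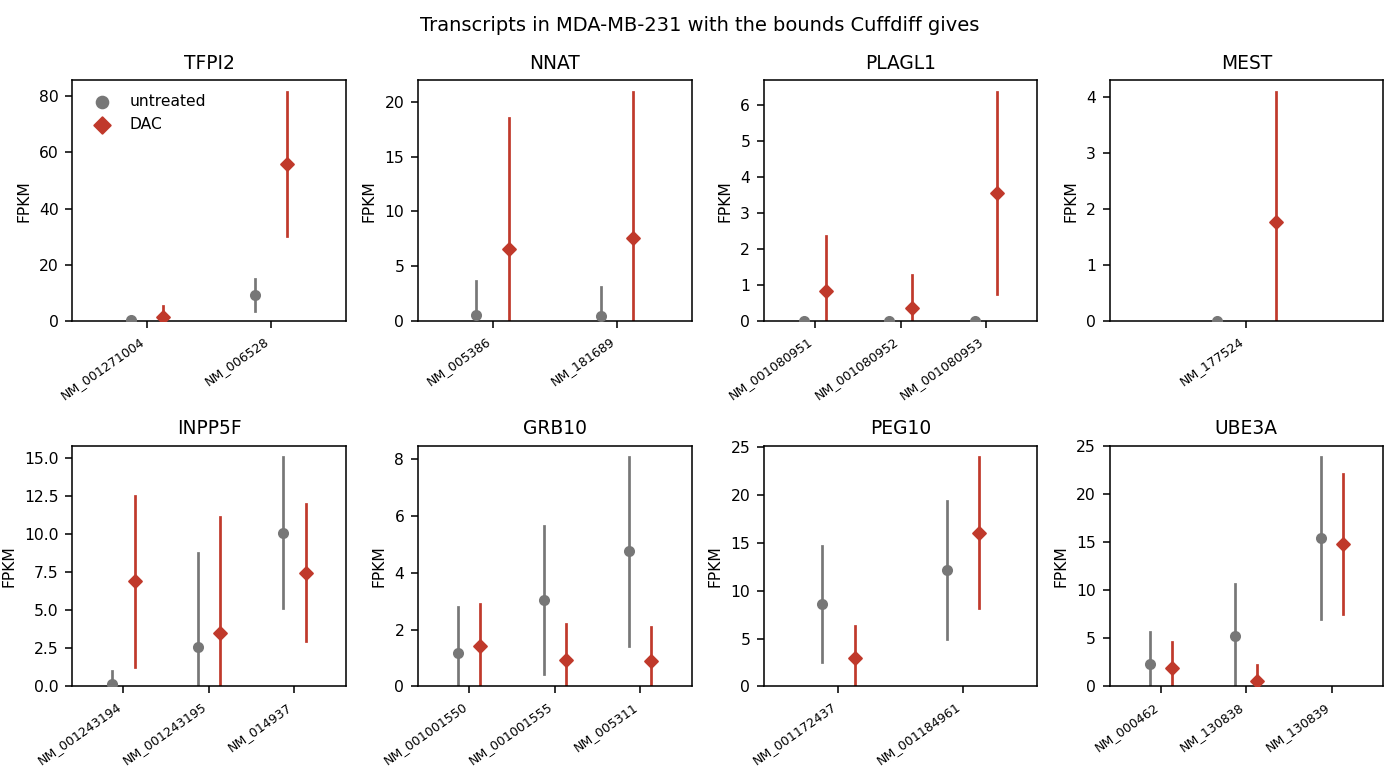
FPKM (vertical linear axis, from 0) of transcripts at 0.3 FPKM or more in a library of MDA-MB-231, for 8 imprinted genes, in the untreated (grey circles) and DAC (red diamonds) library. Bars are the lower and upper bounds Cuffdiff gives, which do not overlap for NM_006528 of TFPI2, NM_001080953 of PLAGL1 and NM_001243194 of INPP5F.

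At 20q11.2, NNAT (chromosome 20, 36149608 to 36152092, plus strand) encodes neuronatin, a small membrane proteolipid of developing brain, and sits in an intron of BLCAP. NNAT was at 1.003 FPKM untreated and 14.2 FPKM after DAC in MDA-MB-231, about 45 and 633 reads, a ratio of 14.1. Its 2 transcripts contributed alike, NM_005386 with 0.587 and 6.58 FPKM and NM_181689 with 0.416 and 7.59 FPKM, and the bounds overlapped for each. NM_005386 rose in HMLER from 0.471 to 10.7 FPKM, a ratio of 22.7. BLCAP, its host gene, was at 45.9 and 54.4 FPKM in MDA-MB-231, a ratio of 1.18, and was not listed in HMLER. Without strand, reads of NNAT and of the intron around it cannot be separated with certainty. After DAC, NM_005386 was thus at 6.58 FPKM in MDA-MB-231 and 10.7 FPKM in HMLER, from under 1 FPKM in each line.

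PLAGL1 had the largest ratio of the genes called higher. PLAGL1 (chromosome 6, 144261437 to 144385736, minus strand) encodes the zinc-finger transcription factor ZAC1, made from the paternal copy. In MDA-MB-231 it had 2 reads untreated and 675 after DAC, or 0.0186 and 5.10 FPKM. The ratio of reads was 339.7, with a counting interval of 93.7 to 2810. The transcript NM_001080953 carried most of the gain, from 0 FPKM (bounds 0 to 0.0148) to 3.57 FPKM (bounds 0.766 to 6.38), and NM_001080951 reached 0.825 FPKM. Whether NM_001080953 begins at the imprinted start was not determined here. PLAGL1 was not listed in HMLER.

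MEST (chromosome 7, 130126012 to 130146306, plus strand), which encodes a protein with an alpha/beta-hydrolase fold and is made from the paternal copy, was at 0.157 FPKM untreated and 2.26 FPKM after DAC in MDA-MB-231. These were 14 and 213 reads, a ratio of reads of 15.3 (counting interval 8.93 to 28.5). The transcript NM_177524, at 0 FPKM (bounds 0 to 0.0210) untreated, was at 1.76 FPKM (bounds 0 to 4.10) after DAC, so that the bounds overlapped. Whether NM_177524 begins at the imprinted start was not determined here. MEST was not listed in HMLER. PLAGL1 and MEST thus went from near 0 to a few FPKM in MDA-MB-231, without an entry in the HMLER table.

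ZDBF2 showed the same course at a lower level. ZDBF2 (chromosome 2, 207139387 to 207179151, plus strand), a zinc-finger gene made from the paternal copy, had 1 read without DAC and 204 with it, 0.00236 and 0.484 FPKM. The ratio was 205.3 with a counting interval of 36.4 to 8148. The bounds were 0 to 0.00905 and 0 to 1.04, and as both values were under 1 FPKM, ZDBF2 was not called.

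INPP5F changed by transcript rather than in sum. INPP5F (chromosome 10, 121485554 to 121588659, plus strand) encodes a phosphoinositide phosphatase, and only an isoform that starts inside the gene is known to be imprinted. The transcript NM_001243194 was at 0.181 FPKM (bounds 0 to 1.02) untreated and 6.91 FPKM (bounds 1.29 to 12.54) after DAC in MDA-MB-231, without overlap of the bounds, a ratio of 38.3. The longest transcript, NM_014937, was at 10.1 FPKM (bounds 5.14 to 15.1) untreated and 7.49 FPKM (bounds 2.96 to 12.02) after DAC. Their sum with NM_001243195 was 12.9 and 17.9 FPKM, a ratio of 1.39, so that the gene was not called. NM_001243194 was also the transcript listed in HMLER, where it rose from 0.383 to 18.7 FPKM, a ratio of 48.9. NM_001243194 was therefore higher in both lines, and whether it begins at the imprinted start was not determined here.

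**Figure D3:**
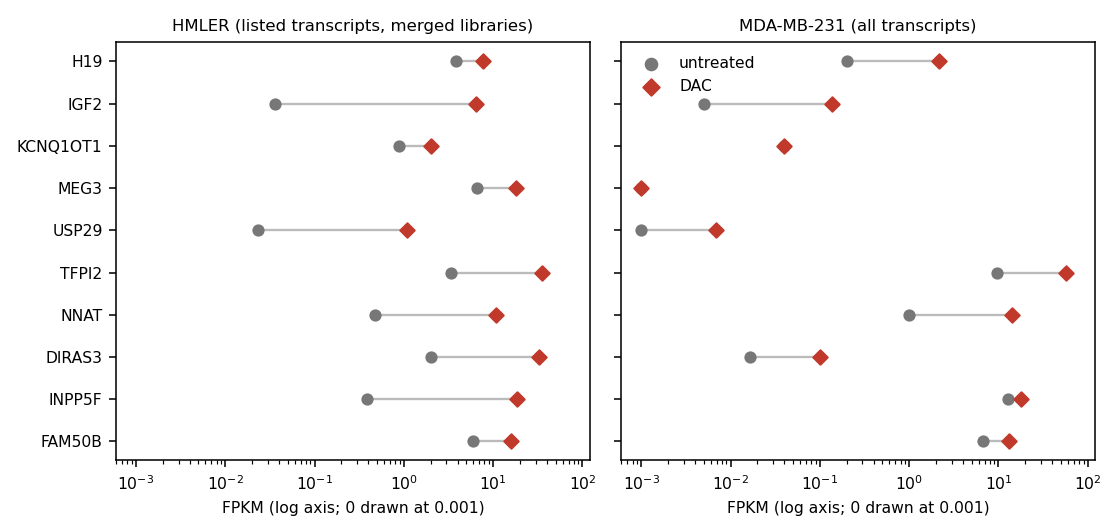
FPKM (horizontal log axes) of the 10 imprinted genes listed in HMLER, in HMLER (left, listed transcripts only, libraries merged) and in MDA-MB-231 (right, all transcripts), untreated (grey circles) and after DAC (red diamonds). MEG3 is at 0 and KCNQ1OT1 at 0.04 FPKM in both MDA-MB-231 libraries, and the values of TFPI2 and NNAT go up in both panels.

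DIRAS3 and FAM50B were the other listed genes above 10 FPKM in treated HMLER cells. DIRAS3 (chromosome 1, 68511569 to 68517400, minus strand), a RAS-related small GTPase that restrains growth and is made from the paternal copy, rose from 2.0 to 32.3 FPKM in HMLER, a ratio of 16.1. In MDA-MB-231 it had 1 and 6 reads, 0.0165 and 0.0993 FPKM, and the counting interval of the ratio, 0.733 to 277.8, includes no change. FAM50B (chromosome 6, 3849607 to 3851554, plus strand), a copy of FAM50A made by retroposition and expressed from the paternal copy, was at similar levels in both lines. It rose from 6.0 to 16.0 FPKM in HMLER and was at 6.67 FPKM (bounds 1.38 to 11.96) and 13.14 FPKM (bounds 4.89 to 21.4) in MDA-MB-231. The MDA-MB-231 ratio was 1.97 (counting interval 1.74 to 2.23), just inside the 2-fold threshold, and FAM50B was called higher once ratios were divided by the median over all genes. USP29, a ubiquitin protease of the PEG3 cluster at 19q13.4, rose from 0.0235 to 1.09 FPKM in HMLER, and had 0 and 1 reads in MDA-MB-231. PEG3 and ZIM2, zinc-finger genes that share their first exons, were listed at 0 in both MDA-MB-231 libraries and were not listed in HMLER.

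At 15q11-q13, the region of Prader-Willi and Angelman syndromes, none of the 7 genes was called in MDA-MB-231 or listed in HMLER. UBE3A, the E6AP ubiquitin ligase, which is imprinted in neurons, was at 23.1 and 17.4 FPKM, a ratio of 0.752. Its transcript NM_130838 was at 5.30 FPKM (bounds 0 to 10.6) untreated and 0.611 FPKM (bounds 0 to 2.21) after DAC, while the main transcript NM_130839 was at 15.46 and 14.8 FPKM. The genes of the paternal copy were near or at 0. MKRN3, a RING-finger ubiquitin ligase, had 4 and 19 reads, 0.0374 and 0.179 FPKM, a ratio of 4.78 (counting interval 1.59 to 19.3). SNRPN and SNURF, which are read from the same bicistronic RNA, had 1 read together untreated and 6 after DAC, and are too few to separate. NDN, MAGEL2 and ATP10A were listed at 0 in both libraries.

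GRB10 (chromosome 7, 50657760 to 50861159, minus strand), an adaptor that binds the insulin and IGF1 receptors and restrains growth, fell past the threshold. It was at 9.21 FPKM untreated and 3.24 FPKM after DAC, 1812 and 635 reads, a ratio of 0.351. The transcripts NM_005311 (4.74 and 0.878 FPKM) and NM_001001555 (3.03 and 0.934 FPKM) were lower and NM_001001550 (1.16 and 1.43 FPKM) was not, and the bounds of each overlapped. The direction of GRB10 in HMLER was not analysed here.

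The other expressed genes stayed within the 2-fold threshold. GNAS, the gene of the Gs-alpha subunit, had the highest level of the list, 548.3 FPKM untreated and 578.1 FPKM after DAC, a ratio of 1.05. IGF2R, which takes up and clears IGF2, was at 27.5 FPKM (bounds 14.7 to 40.4) and 22.1 FPKM (bounds 11.8 to 32.5), a ratio of 0.805. NAP1L5, a nucleosome assembly protein-like gene, was at 7.41 and 7.16 FPKM, and its ratio of 0.966 became 1.06 when divided by that median. This was the 1 gene of 28 whose direction turned with that scaling. L3MBTL1, a chromatin protein that reads methylated histones, was at 0.772 and 1.02 FPKM, a ratio of 1.32.

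Over the 19 genes at 1 FPKM or more in a library, the median log2 change, with 1 FPKM added to each value, was 0.24, beside -0.08 over the 12525 symbols past the same filter. As 4 of the 19 passed only after DAC, the value over genes at 1 FPKM or more in both libraries is given too: it was 0.14 over 15 imprinted genes and -0.12 over 11292 symbols. Genes at 0 without DAC can only go up, so directions were counted over genes above 0 in the untreated library. Summed FPKM was higher after DAC in 19 of 26 such imprinted genes, 73.1%, and in 50.1% of 16540 such symbols, and many of these values rest on few reads.

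**Figure D4:**
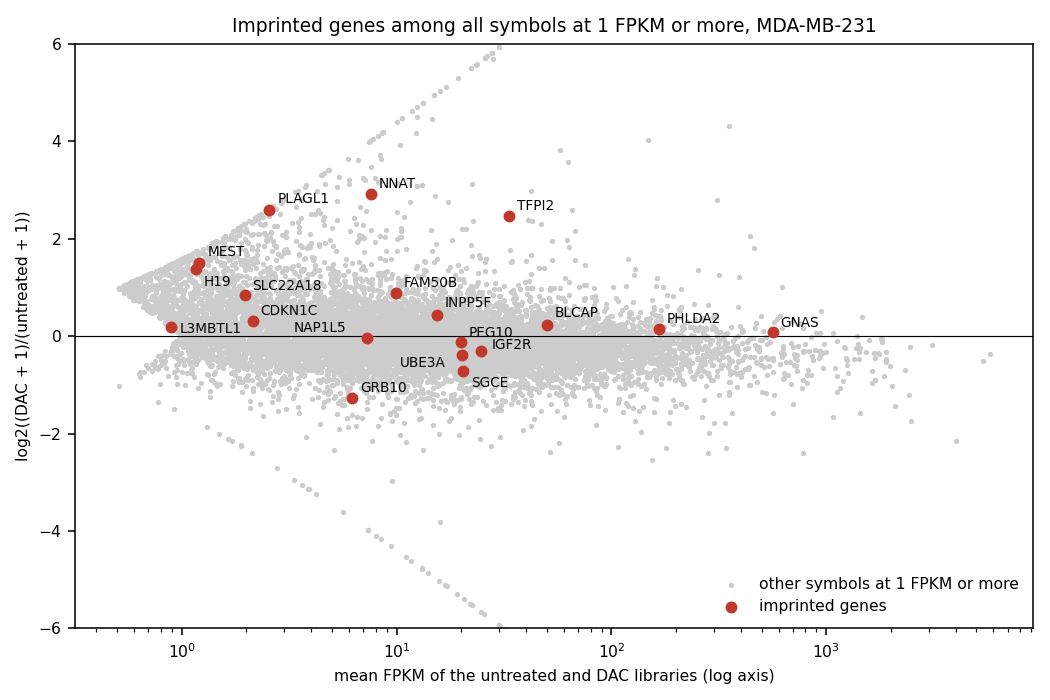
Log2 change after DAC in MDA-MB-231 (vertical axis, 1 FPKM added to each value) against the mean FPKM of both libraries (horizontal log axis) for the 19 imprinted genes at 1 FPKM or more in a library (red) and the other symbols past this filter (grey). NNAT, PLAGL1 and TFPI2 lie above 2 and GRB10 below -1, most of the others lie between -1 and 1, and 35 symbols are outside the plotted range.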

How the data were processed

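Per the labels and the methods of the study, the authors used TopHat2 for alignment to hg19 and Cuffdiff, on Galaxy, for FPKM values per RefSeq transcript (versions and library scaling not given in the sources used here). The lower and upper bounds, a signal on the FPKM scale, were deposited by the authors for MDA-MB-231. Columns with the authors' fold changes, p-values and q-values were not used. FPKM was summed per symbol, with log2 changes computed after adding 1 FPKM to the deposited values, and the call was a ratio above 2 with 1 FPKM in at least 1 library. Reads were recovered from sole transcripts over 2000 bases, with an effective length of the length minus 204. No count test was run, and strand was not stated. Positions are from GENCODE lifted to GRCh37, found for 38 genes. The members, the lists and the rule for named genes were chosen with earlier results of these data known. All members are described, with the main transcripts of those called or listed. Of other imprinted genes at most 8 and of neighbours at most 5, by log2 change. Alternatives were other filters, pseudocounts, scaling and transcript choices. Steps were tested on simulated data. Tools were matplotlib 3.10.9, scipy 1.17.1, pandas 2.3.3, numpy 2.4.6 and Python 3.11.15.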

Additional observations from a re-analysis of the deposited data

Results flagged for a closer look

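In 4 cases a value was lower after DAC in MDA-MB-231 while the same symbol or transcript was listed as higher in HMLER. With 1 value per condition in each line, this difference was not tested. GPR1, a receptor gene beside ZDBF2, had a ratio of 0.254 in MDA-MB-231 (1.38 and 0.351 FPKM) and went from 0.758 to 1.85 FPKM in HMLER. TP73, a p53 family gene reported as imprinted, had a ratio of 0.58 (0.892 and 0.518 FPKM, both under 1 FPKM) and went from 0.178 to 2.30 FPKM in HMLER. IRS2, an adaptor of the insulin and IGF1 receptors, had a ratio of 0.995 (9.21 and 9.17 FPKM), so that its fall is negligible, and went from 2.94 to 6.38 FPKM in HMLER. The IGF2 transcript NM_001127598 was at 0.00505 FPKM untreated, about 1 read, and 0 after DAC in MDA-MB-231, a ratio of 0, while other IGF2 transcripts gained reads.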

How the results depend on the processing

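No paired analysis was possible because both numbered HMLER libraries are merged into a single value and MDA-MB-231 was sequenced once per condition. Leaving out a library could not be run either. The number of imprinted genes higher in MDA-MB-231 (6) was 13 with no filter on low values, 3 with 5 FPKM required in a library, 3 with 1 FPKM in both, and, chosen after seeing the data, 3 with bounds that do not overlap and 3 with 1 FPKM in the untreated library. GRB10, the 1 gene lower, was joined by 3 others when any transcript was counted (4: BLCAP, PEG10 and UBE3A), and 0 were lower where bounds must not overlap. The number higher in both lines (3) was 6 without a filter. The number listed in HMLER (10) was 5 with 1 FPKM in both conditions. The median log2 change of 0.24 was 0.36 with a pseudocount of 0.1, 0.18 without a filter, 0.11 at 5 FPKM, 0.37 after division by the median ratio, 0.35 with the largest transcript and 0.14 at 1 FPKM in both, which was chosen after seeing the data. The filters change how many genes enter, and for the other settings the cause was not tested. Beyond the main setting, shares over all symbols were computed only for rises with bounds that do not overlap and for HMLER at 1 FPKM in both conditions. The other counts therefore have no share over all symbols beside them, and whether the excess over all symbols holds at those settings was not tested. SLC22A18 was not called with 1 FPKM added to both values (5 genes), and INPP5F and BLCAP were called higher when any transcript was counted (8 genes). Depth limits IGF2, USP29, SNRPN, SNURF, MKRN3 and DIRAS3 in MDA-MB-231, with 29 reads or fewer per library.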

Other observations

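Of 71 further genes that have been reported as imprinted in human or mouse, taken from a list and measured in MDA-MB-231, 2 were called higher and 4 lower, and 7 had an entry in the HMLER table. These are 2.82%, 5.63% and 9.86%, beside 5.72%, 2.56% and 7.85% of all symbols. ZNF542, a zinc-finger gene, was the 1 gene higher in both lines, at 0.00731 and 5.83 FPKM in MDA-MB-231, and at 0.787 and 3.74 FPKM in HMLER cells. PON3, a paraoxonase gene near PEG10, was at 0.475 and 2.80 FPKM in MDA-MB-231. The genes called lower were RB1, the retinoblastoma tumour suppressor, at 38.2 and 13.8 FPKM, TRAPPC9 at 5.55 and 1.397 FPKM, GPR1, and SLC22A3, a cation transporter beside IGF2R, at 4.82 and 2.39 FPKM. CDH15, a cadherin gene, at 0.0353 and 0.871 FPKM, and the zinc-finger gene ZNF331, at 4.84 and 8.02 FPKM, were listed in HMLER and not called in MDA-MB-231.

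Of 24 genes that write, protect or remove DNA methylation or bind imprinted regions, 14 reached 1 FPKM, none passed the 2-fold threshold and none was listed in HMLER. Over all symbols, 5.72% were called higher, 2.56% were called lower and 7.85% were listed. These genes, and those of the IGF axis below, are few, and their counts were not tested against these shares. DNMT1 was at 128.1 and 96.7 FPKM, its partner UHRF1 at 40.9 and 36.8 FPKM, and the de novo methyltransferases DNMT3A and DNMT3B at 5.81 and 7.84 and at 4.96 and 8.08 FPKM. Of 11 genes of the IGF axis, 0 were called in MDA-MB-231, and the HMLER table held 2, IRS2 and IGF2BP1, an RNA-binding protein of IGF2 messages (0.359 and 1.72 FPKM in HMLER, 0.00548 and 0.915 FPKM in MDA-MB-231).

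There were 300 symbols within 250 kb of an imprinted gene and in no list, of which 180 are small nucleolar RNA or microRNA symbols. Of the 300, 7 (2.33%) were called higher in MDA-MB-231 and 2 (0.667%) were called lower, while 11 (3.67%) had a HMLER entry. The shares over all symbols were 5.72%, 2.56% and 7.85%. Only 68 of the 300 reached 1 FPKM in a library, where 12525 of 23617 symbols did, so these percentages are not on a like footing. The 5 with the largest log2 change were 3 small nucleolar RNAs, whose FPKM rests on very short transcripts, and TH and SRC. SNORD51, near ZDBF2, was lower (84.4 and 0 FPKM), while SNORD107 at 15q11-q13 (0 and 46.7 FPKM) and SNORA54 in the KCNQ1OT1 domain (0 and 5.34 FPKM) were higher. TH, tyrosine hydroxylase, which lies beside IGF2 on 11p15.5, was at 0.0436 and 2.40 FPKM in MDA-MB-231, and at 0.174 and 5.70 FPKM in HMLER cells. SRC, a tyrosine kinase gene beside BLCAP and NNAT on 20q11.2, was at 7.43 and 19.2 FPKM and was not listed in HMLER.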
